A study of Mus musculus with 6 samples.

Results

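The mitotic cyclin-CDK1 engine was followed through 10 genes chosen by name: the A- and B-type cyclins Ccna2, Ccnb1 and Ccnb2, the kinase Cdk1, its small Cks subunits Cks1b and Cks2, the activating phosphatases Cdc25b and Cdc25c, the inhibitory kinase Wee1 and the Polo kinase Plk1. They were chosen with earlier results of these data known. All 10 were among the 57010 gene identifiers of the deposited table. Ventricle RNA of mice at postnatal day 14 was sequenced as 3 libraries labelled control and 3 labelled Cend1-KO, with replicate numbers 1, 3 and 4 in either group. Cend1, which takes its name from cell cycle exit and neuronal differentiation, is the gene knocked out. The labels used here state no allele, strain or sex, and they do not say that every library is a separate animal, so p-values cover the spread among these libraries, part of which may be technical.

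Entry into mitosis is driven by CDK1, a kinase that is active only when bound to a cyclin. Cyclin A2 acts from S phase into early mitosis, and the B-type cyclins accumulate in G2 and are destroyed at anaphase. WEE1 holds the complex inactive by phosphorylating CDK1, the CDC25 phosphatases remove that phosphate, and PLK1 promotes the switch by acting on both. In the mouse heart most cardiomyocytes leave the cell cycle soon after birth, while endothelial cells, fibroblasts and blood-derived cells can go on dividing.

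Many of these genes are known for a shared promoter layout, in which CCAAT boxes, bound by the factor NF-Y, lie upstream of a cell cycle genes homology region (CHR), bound by the MuvB complexes. Promoter windows from 250 bases before to 50 after the annotated start, from RefSeq on GRCm38.p6, are shown for 5 members. Ccnb1, Ccnb2, Cks2 and Plk1 were called lower in Cend1-KO, and Cdk1, the kinase itself, only after the scaling described below. Cks1b, also called only after that scaling, is described without its sequence. The other called members, Ccna2 and Cdc25c, had no window that was read. Capitals mark TTTGAA and TTTAAA, 2 forms of the CHR, and the CCAAT box, each searched on both strands, so that a box on the opposite strand reads ATTGG. Each is read 5′ to 3′ on the strand of its gene.
Ccnb1, chr13:100786437-100786736, minus strand: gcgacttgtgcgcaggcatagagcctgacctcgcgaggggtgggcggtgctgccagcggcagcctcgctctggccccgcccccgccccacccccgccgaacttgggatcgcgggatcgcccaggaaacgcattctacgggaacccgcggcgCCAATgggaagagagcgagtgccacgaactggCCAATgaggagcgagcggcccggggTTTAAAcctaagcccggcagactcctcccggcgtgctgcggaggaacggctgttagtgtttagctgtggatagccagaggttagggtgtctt
Ccnb2, chr9:70421505-70421804, minus strand: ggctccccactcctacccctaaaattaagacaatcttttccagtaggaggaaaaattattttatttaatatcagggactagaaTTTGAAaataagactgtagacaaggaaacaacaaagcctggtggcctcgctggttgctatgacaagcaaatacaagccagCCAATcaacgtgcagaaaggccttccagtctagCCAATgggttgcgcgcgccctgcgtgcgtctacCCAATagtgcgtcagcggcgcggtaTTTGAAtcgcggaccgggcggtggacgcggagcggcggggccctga
Cdk1, chr10:69352863-69353162, minus strand: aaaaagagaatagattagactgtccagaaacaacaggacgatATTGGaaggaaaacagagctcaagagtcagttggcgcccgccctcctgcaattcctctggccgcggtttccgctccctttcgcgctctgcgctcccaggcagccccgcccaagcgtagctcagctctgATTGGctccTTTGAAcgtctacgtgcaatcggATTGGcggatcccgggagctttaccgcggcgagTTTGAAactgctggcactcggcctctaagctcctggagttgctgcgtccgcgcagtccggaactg
Plk1, chr7:122159185-122159484, plus strand: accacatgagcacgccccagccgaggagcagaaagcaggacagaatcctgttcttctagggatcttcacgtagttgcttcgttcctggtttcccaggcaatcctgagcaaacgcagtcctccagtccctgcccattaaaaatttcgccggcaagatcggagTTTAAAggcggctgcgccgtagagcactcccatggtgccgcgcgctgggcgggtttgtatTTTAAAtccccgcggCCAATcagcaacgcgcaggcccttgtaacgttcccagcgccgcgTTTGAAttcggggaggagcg
Cks2, chr13:51644982-51645281, plus strand: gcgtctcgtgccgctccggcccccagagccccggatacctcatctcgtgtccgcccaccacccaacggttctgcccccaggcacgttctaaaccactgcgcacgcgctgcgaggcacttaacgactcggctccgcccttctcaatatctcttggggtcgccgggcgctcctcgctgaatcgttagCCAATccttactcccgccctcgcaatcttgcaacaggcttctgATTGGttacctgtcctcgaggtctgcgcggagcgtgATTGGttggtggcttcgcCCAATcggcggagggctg

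Windows were read for 7 members, Ccnb1, Ccnb2, Cdk1, Cks1b, Cks2, Cdc25b and Plk1. All 7 held a CCAAT box, as did 37.4% of the 32851 promoter windows in the RefSeq table. Either form of the CHR was found in 5 of the 7, the exceptions being Cks2 and Cdc25b, and in 27.6% of all windows. Ccnb2 and Cdk1 held 3 CCAAT boxes each and Cks1b and Cks2 held 4, where 3.37% of all windows had at least 3. Ccnb1 had 2 CCAAT boxes followed by 1 TTTAAA, Plk1 had 2 TTTAAA, 1 TTTGAA and 1 CCAAT box, and Cdc25b had 1 CCAAT box alone. In Ccnb1, Ccnb2, Cdk1, Cks1b and Plk1 a CHR form lay downstream of the CCAAT box nearest to the start, by position. No match overlapped another, and a match is a description of these letters, not of binding.

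**Figure D1:**
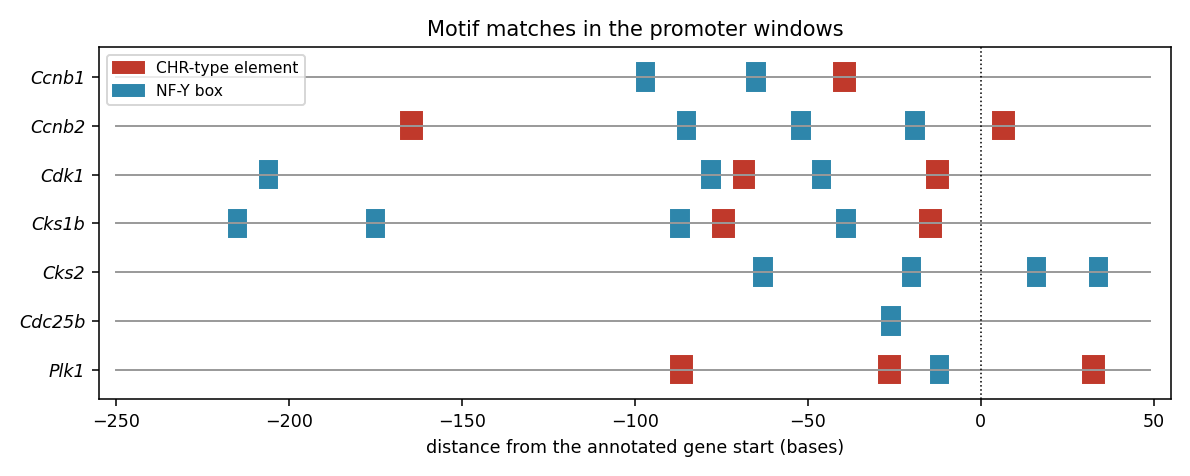
Positions of CHR-type elements (red) and NF-Y boxes (blue) along the promoter windows of 7 members, in bases from the annotated gene start (dotted line). Ccnb2 and Cdk1 carry 3 NF-Y boxes each, Cks1b and Cks2 carry 4, and Cdc25b carries 1 with no CHR-type element.

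Levels are the authors' TPM, which are scaled by transcript length, so that levels can be compared between genes, and by library, so that sequencing depth is unknown. TPM is relative within a library. Mitochondrial-genome transcripts took 34.9% of TPM in Cend1-KO replicate 3 and 17.9% to 22.9% in the other libraries, and median-of-ratios factors ran from 0.718 in that library to 1.24 in Cend1-KO replicate 1. Every test was therefore also run after median-of-ratios scaling, which moved the median difference of all tested genes from -0.11 to -0.0060 on the log2 scale. The targeted gene, Cend1, had 1.44, 1.99 and 1.54 TPM in the controls, while each Cend1-KO library lists it at 0.

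Marker lists set the tissue beside these values. The summed level of 6 cardiomyocyte markers was 22550 to 25410 TPM in controls and 14490 to 18000 TPM in Cend1-KO, and the groups overlapped after scaling. Sums of the erythroid markers (888 to 2753 and 6838 to 15520 TPM, with Klf1 under 0.1 TPM throughout), fibroblast markers (1030 to 1995 and 2437 to 3455) and endothelial markers (155 to 182 and 197 to 554) were above every control in every Cend1-KO library, as deposited and after scaling. Adipocyte markers summed to 0.0166 to 2.27 TPM in controls and 12.7 to 21.1 in Cend1-KO. Lung epithelial markers summed to 476 and 797 TPM in Cend1-KO replicates 1 and 4 and to at most 0.317 TPM elsewhere. The ranges of the myeloid sums (177 to 254 and 127 to 391 TPM), smooth muscle sums (354 to 466 and 276 to 383) and lymphocyte sums (1.90 to 2.59 and 1.03 to 3.88) overlapped between groups. The part of these markers in the results below was not tested. Fewer dividing cells and less RNA of these genes per dividing cell cannot be told apart in bulk tissue.

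The question was which transcripts of the engine differ in ventricles lacking Cend1. Of the 10 members, 6 fell in Cend1-KO, namely Ccna2, Ccnb1, Ccnb2, Cks2, Cdc25c and Plk1, and 0 rose. Over all 13542 tested genes 0.908% were called lower and 0.79% higher (limma, adjusted p under 0.05). After median-of-ratios scaling Cdk1 and Cks1b fell as well, which made 8 of 10, against 4.32% of all tested genes. The shares are no test of the members as a set, because the members were chosen with earlier results of these data known. The median difference of the members was -1.43 on the log2(TPM + 1) scale, beside -0.11 for all tested genes, and -1.34 after scaling. In 9 of the 10, all but Cdc25b, every Cend1-KO library lay below every control, as in 18.6% of all tested genes. All 10 passed the filter of at least 1 TPM in at least 3 libraries, and 8 reached 1 TPM in all 6; Plk1 missed it in 1 Cend1-KO library and Cdc25c in 2. Leaving out control replicate 3 lowered the count to 4, namely Ccnb1, Cks2, Cdc25c and Plk1, with 28 of all 13385 tested genes called lower. Of the Cend1-KO libraries, leaving out replicate 1 gave 8, replicate 3 gave 7 and replicate 4 gave 5. All genes called lower then numbered 553 of 13282, 316 of 13472 and 42 of 13341.

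**Figure D2:**
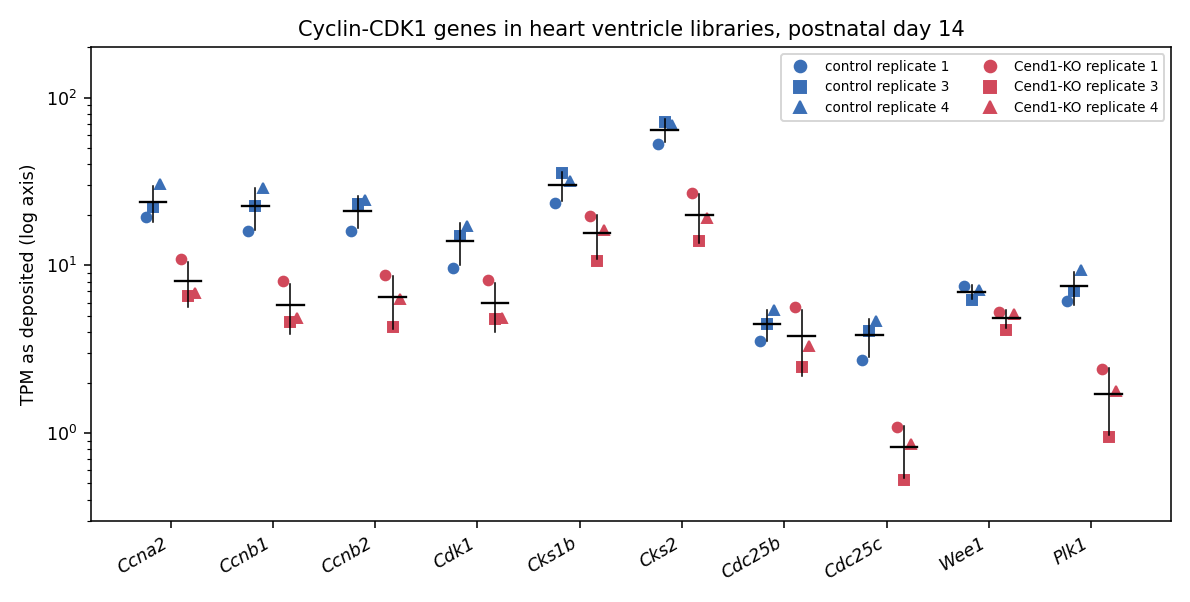
TPM of each gene in each library (log axis), with control in blue and Cend1-KO in red. Symbols mark the replicate number, horizontal lines the mean and vertical lines 1 SD (n = 3). The groups are apart for every gene except Cdc25b, and Cend1-KO replicate 3 is the lowest library for all 10 on this unscaled axis.

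All 3 cyclins fell. Cyclin B1, the main mitotic partner of CDK1, was measured as Ccnb1 (mm10 chromosome 13, 100778650 to 100786570, minus strand) in controls, always given in the order of replicates 1, 3 and 4, at 16.1, 22.7 and 28.9 TPM. The Cend1-KO libraries had 8.05, 4.60 and 4.85 TPM. The highest of these lay well below the lowest control, and the mean was 3.87-fold lower. On the log2(TPM + 1) scale used for every difference below, Ccnb1 was lower by a difference of -1.78 (SE 0.29; adjusted p = 0.00762). Its processed pseudogene Ccnb1-ps, with which reads may be shared, was at most 0.822 TPM.

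Cyclin B2, another B-type cyclin, had Ccnb2 values of 15.9, 23.3 and 24.4 TPM in controls and 8.76, 4.27 and 6.28 TPM in Cend1-KO (chromosome 9, 70407692 to 70421547, minus strand). Control replicate 1 was the low control, as it was for Ccnb1, and the groups did not overlap. The difference was -1.60 (SE 0.29; adjusted p = 0.0125, and 0.0625 without control replicate 3). The annotated copy Ccnb2-ps was at 0.409 to 0.873 TPM in controls and 0.552 to 0.926 TPM in Cend1-KO. Cyclin A2, which also acts in S phase, had Ccna2 values of 19.3, 22.2 and 30.6 TPM in controls and 10.9, 6.53 and 6.80 TPM in Cend1-KO (chromosome 3, 36564865 to 36572150, minus strand). The difference was -1.47 (SE 0.27; adjusted p = 0.0154, 0.0593 without control replicate 3 and 0.0707 without Cend1-KO replicate 4). Exons of Exosc9 overlap Ccna2 on the opposite strand, and the library kit is not stated to mark strand, so the Ccna2 level may include reads of that gene. Exosc9 itself did not pass the test (adjusted p = 0.801), with 20.6 ± 1.71 TPM in control and 18.5 ± 2.21 TPM in Cend1-KO libraries (SD, n = 3).

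The kinase itself did not pass the test as deposited and passed it after scaling. Cdk1 (chromosome 10, 69335146 to 69352938, minus strand) was at 9.62, 15.0 and 17.3 TPM in controls and at 8.20, 4.78 and 4.86 TPM in Cend1-KO. The gap between the lowest control and the highest Cend1-KO library was small, at 9.62 against 8.20 TPM, and both carried replicate number 1. The difference was -1.11 (SE 0.29; 95% interval -1.73 to -0.49), which did not pass over all genes as deposited (adjusted p = 0.0741). Without Cend1-KO replicate 1 or replicate 3 it passed (adjusted p = 0.00631 and 0.0426). Without any 1 control or without Cend1-KO replicate 4 it did not pass, with adjusted p from 0.0777 to 0.302. With median-of-ratios scaling the difference was -0.99 (SE 0.20; adjusted p = 0.0154), and there it missed the threshold without control replicate 3 (adjusted p = 0.0781).

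The Cks subunits, small proteins that bind CDK1 and help it dock on phosphorylated substrates, were the most abundant members, and 1 of them was called as deposited. Cks2 (chromosome 13, 51645232 to 51650660, plus strand) was at 53.3, 71.7 and 68.9 TPM in controls and at 27.0, 14.1 and 19.1 TPM in Cend1-KO, a difference of -1.68 (SE 0.27; adjusted p = 0.00736). No Cend1-KO library came near a control. Cks1b (chromosome 3, 89415472 to 89418383, minus strand), whose protein also serves the SCF-SKP2 ubiquitin ligase, was at 23.6, 35.5 and 31.7 TPM in controls and at 19.6, 10.6 and 16.4 TPM in Cend1-KO. The groups were apart by 23.6 against 19.6 TPM. The Cks1b difference was -0.94 (SE 0.28; adjusted p = 0.12, and 0.0175 without Cend1-KO replicate 1). Without any other single library it did not pass as deposited, with adjusted p from 0.0548 to 0.457. After scaling the Cks1b difference was -0.82 (SE 0.17; adjusted p = 0.0176, and 0.0691 without control replicate 3). The annotated copy Cks1brt was listed at 0 in all 6 libraries.

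Of the CDC25 phosphatases, which switch CDK1 on, Cdc25c fell and Cdc25b did not pass the test. Cdc25c was at 2.73, 4.06 and 4.65 TPM in controls and at 1.08, 0.523 and 0.857 TPM in Cend1-KO, a mean 4.65-fold lower. This was the largest ratio of group means among the members, and the difference was -1.39 (SE 0.23; adjusted p = 0.00839) on a scale that understates changes of low genes. Cdc25c passed the filter of 1 TPM in 3 libraries through the controls, because only replicate 1 of the Cend1-KO libraries reached 1 TPM. The ratio therefore rests on low Cend1-KO values. At a filter of 0.1 TPM the adjusted p was 0.0166, and at 5 TPM Cdc25c was not tested. Cdc25b (chromosome 2, 131186949 to 131198497, plus strand) was at 3.53, 4.44 and 5.43 TPM in controls and at 5.61, 2.48 and 3.32 TPM in Cend1-KO. The highest of the 6 values was in Cend1-KO replicate 1 as deposited and in control replicate 4 after scaling. The Cdc25b difference was -0.23 (SE 0.27; adjusted p = 0.737), with a 95% interval from -0.81 to 0.36 as deposited and from -0.49 to 0.22 after scaling. Both intervals lie above a fall of 1 on this scale, which understates changes of low genes such as Cdc25b. With a pseudocount of 0.1 the Cdc25b difference was -0.29 (SE 0.34). Without Cend1-KO replicate 1 it was -0.48 (adjusted p = 0.177). Exons of Spef1 overlap Cdc25b on the opposite strand. Spef1 was at 2.57 to 3.60 TPM in controls and 2.08 to 6.52 TPM in Cend1-KO, highest in replicate 1 as well. Among the Cend1-KO libraries, replicate 1 was the highest for 81.8% of all tested genes as deposited.

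Wee1 (chromosome 7, 110122046 to 110143286, plus strand), which restrains CDK1, was at 7.50, 6.20 and 7.11 TPM in controls and at 5.26, 4.13 and 5.12 TPM in Cend1-KO. The groups did not overlap, but the difference of -0.45 (SE 0.23; adjusted p = 0.384) did not pass, with a 95% interval from -0.95 to 0.056. After scaling it was -0.33 (adjusted p = 0.161). Plk1 (chromosome 7, 122159439 to 122169873, plus strand), which promotes CDK1 activation and later steps of mitosis, was at 6.10, 7.01 and 9.36 TPM in controls and at 2.41, 0.947 and 1.78 TPM in Cend1-KO. The Plk1 mean was 4.38-fold lower, with a difference of -1.67 (SE 0.26; adjusted p = 0.00736). Leaving out any 1 library kept the calls of Ccnb1, Cks2, Cdc25c and Plk1, whose largest adjusted p was then 0.0384, for Cks2.

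**Figure D3:**
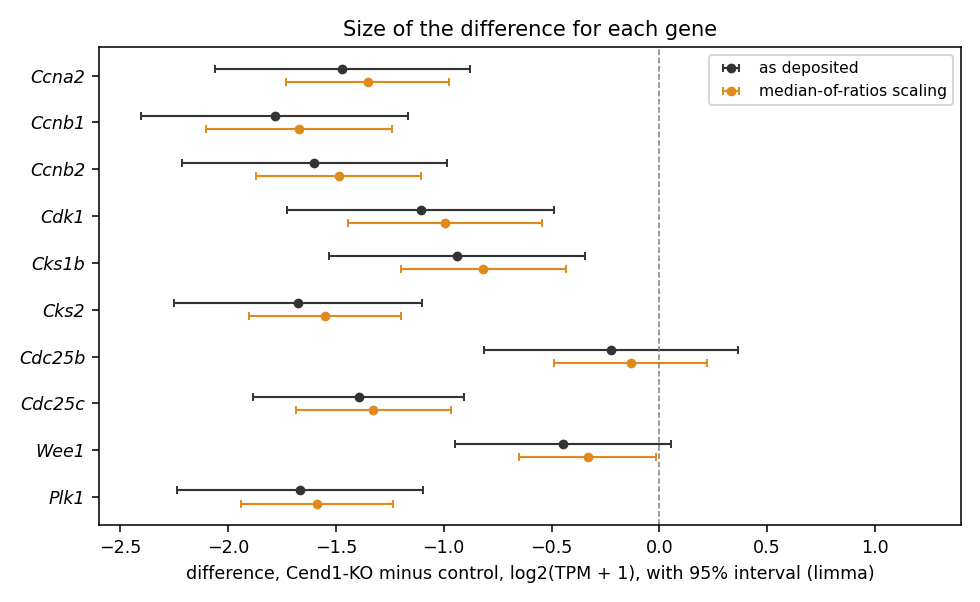
Difference between Cend1-KO and control on the log2(TPM + 1) scale for each gene, with its 95% interval, as deposited (black) and after median-of-ratios scaling (orange). Ccnb1 lies lowest at -1.78, and the intervals of Cdc25b include 0 under both.

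The order of libraries within each group was compared next. The levels of the 10 members summed to 157.7, 212.1 and 228.3 TPM in the controls, and to 96.9, 52.9 and 69.3 TPM in the Cend1-KO libraries. Control replicate 1 was the lowest control for 9 of 10 members, the exception being Wee1, and it remained so for those 9 after scaling. Of all tested genes 32.7% had their lowest control there, and 32.2% after scaling. Among Cend1-KO libraries replicate 1 was highest and replicate 3 lowest for all 10 as deposited, as they were for 81.8% and 86.0% of all tested genes. After median-of-ratios scaling the order differed between members: replicate 1 was highest for 6 members and replicate 3 for Ccna2, Cdk1 and Wee1, while replicate 4 was lowest for 5 and replicate 3 for 4. Then Ccnb1, for instance, was at 6.49, 6.41 and 4.89 TPM in the Cend1-KO libraries. Control replicate 4 was the highest control for 7 members as deposited and 5 after scaling, as for 54.4% and 31.0% of all tested genes. Cend1-KO replicate 1 also had the highest endothelial, erythroid, myeloid and lymphocyte sums of the 6 libraries, as deposited and after scaling. Its fibroblast sum was the highest as deposited only. Xist, a marker of sex, was at 16.4 TPM in control replicate 4 and 7.37 TPM in Cend1-KO replicate 1. In every other library Xist was at most 0.0555 TPM. The part of these sums and of Xist in the order of libraries was not tested.

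Ratios between members within a library do not depend on how whole libraries are scaled, and they were compared on the TPM scale. With 3 libraries against 3 the smallest two-sided exact permutation p is 0.1, so these ratios are given as values without a test, and they were chosen after the levels were known. Relative to Cdk1, 6 of the other 9 members were lower in every Cend1-KO library than in every control, 1 was higher and 2 overlapped. Over all other tested genes, 0.48% were lower and 69.4% higher relative to Cdk1 by the same count. Cdk1 was itself lower in Cend1-KO, by a smaller difference than those 6 members, so these ratios partly restate the differences in level. Ccnb1 stood at 1.67, 1.52 and 1.67 times the Cdk1 level in controls and at 0.982, 0.964 and 0.999 times in Cend1-KO. The transcript of the main mitotic cyclin was thus above that of the kinase in all controls and about level with it in all Cend1-KO libraries, with a spread far smaller than the gap. Plk1 relative to Cdk1 was 0.548 ± 0.0833 and 0.286 ± 0.0845, and Cdc25c relative to Cdk1 was 0.275 ± 0.00814 and 0.139 ± 0.0342 (SD, n = 3 each). Cdc25b, like most genes, was higher relative to Cdk1, at 0.326 ± 0.0369 in controls and 0.629 ± 0.0953 in Cend1-KO. Cks1b and Wee1 overlapped between groups relative to Cdk1.

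**Figure D4:**
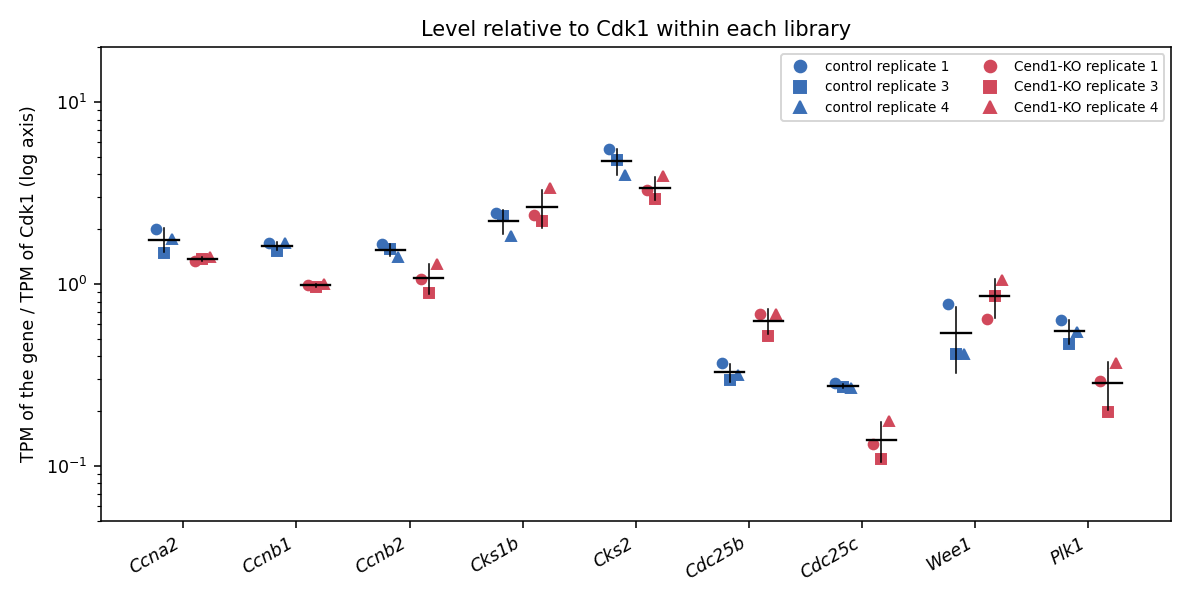
Level of each gene divided by the level of Cdk1 in the same library (log axis), with symbols and bars as for the plot of TPM (mean and 1 SD, n = 3). Ccnb1 lies above 1.5 in controls and just under 1 in Cend1-KO, Cdc25c and Plk1 lie lower and Cdc25b higher in Cend1-KO, and Cks1b and Wee1 overlap.

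The balance within pairs of members was compared in the same way, and no share of all genes was computed for these pairs. Cks2 was 2.26, 2.02 and 2.17 times as abundant as Cks1b in controls and 1.38, 1.33 and 1.17 times in Cend1-KO. Cdc25b and Cdc25c were close in controls, with ratios of 1.29, 1.09 and 1.17, while Cdc25b exceeded Cdc25c in Cend1-KO by 5.18, 4.74 and 3.87 times. Wee1 over Cdc25c, the inhibitory kinase over an activating phosphatase, was 2.74, 1.53 and 1.53 in controls and 4.86, 7.90 and 5.98 in Cend1-KO. Neither Cdc25b nor Wee1 passed the test, while Cdc25c fell to between 0.523 and 1.08 TPM. Both ratios over Cdc25c therefore mainly restate the fall of Cdc25c. The B-type pair kept an overlapping balance, with Ccnb1 over Ccnb2 at 1.06 ± 0.112 and 0.923 ± 0.153 (SD, n = 3 each). Of the summed member level, Cks2 made up 30.2% to 33.8% in controls and 26.6% to 27.9% in Cend1-KO, and Cks1b 13.9% to 16.7% and 20.1% to 23.6%.

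General markers of cycling cells were set beside the members. Mki67, present through most of the cycle, was at 4.60, 4.50 and 7.20 TPM in controls and 3.26, 2.18 and 2.07 TPM in Cend1-KO. Top2a, which untangles replicated DNA, was at 14.1, 15.0 and 19.8 TPM and at 9.07, 5.37 and 6.24 TPM, with a difference of -1.15 (SE 0.26; adjusted p = 0.0440). That call was lost without any 1 control or without Cend1-KO replicate 4, with adjusted p between 0.12 and 0.17. It was also lost at filters of 0.1 and 5 TPM and with no filter (adjusted p = 0.0685, 0.0579 and 0.279), and it held after scaling (adjusted p = 0.00294). Mki67 had a difference of -0.87 (adjusted p = 0.114, 0.0183 without Cend1-KO replicate 1, and 0.0197 after scaling). Without any other single library Mki67 did not pass as deposited, with adjusted p from 0.0615 to 0.395. Relative to Mki67, Cdk1 was 2.61 ± 0.644 in controls and 2.35 ± 0.158 in Cend1-KO, and Cks1b also overlapped. Ccnb1 over Mki67 was 3.50, 5.05 and 4.02 in controls and 2.47, 2.12 and 2.35 in Cend1-KO. Plk1 over Mki67 was 1.33, 1.56 and 1.30 and then 0.737, 0.435 and 0.861. The cyclins, Cks2, Cdc25c and Plk1 were lower relative to both markers in every Cend1-KO library than in every control, as were 0.495% of the other tested genes relative to Mki67 and 0.45% relative to Top2a. Both markers were themselves lower in Cend1-KO, by smaller differences than those members, so these ratios partly restate the differences in level. Cdc25b was higher relative to both markers, as were 73.1% and 86.7% of genes. Wee1 was higher relative to Top2a and overlapped relative to Mki67.

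Beyond the 10 members, a list of 45 other genes of CDK1 control was examined, of which 44 were in the table and 39 were tested. Of these 2 fell, 0 rose and 37 did not pass the test. The list median was -0.25 on the log2 scale, beside -0.11 for all tested genes. Aurka, the Aurora A kinase that activates PLK1, fell from a mean of 13.7 ± 3.06 TPM to one of 3.76 ± 1.75 TPM (SD, n = 3; adjusted p = 0.0125). Cdc20, an activator of the anaphase-promoting complex that marks the B-type cyclins for destruction, fell from 20.4 ± 6.14 to 5.69 ± 2.54 TPM (adjusted p = 0.0154). Without control replicate 3 the adjusted p of Cdc20 was 0.0578, and 1 gene of the list, Aurka, was called. After median-of-ratios scaling 6 fell, and as deposited 8 fell when Cend1-KO replicate 1 was left out and 3 when replicate 3 was. Of all tested genes 585 of 13542, 553 of 13282 and 316 of 13472 were called lower under these settings. Ccnf, an F-box cyclin, had a difference of -0.83 (adjusted p = 0.0788, and 0.0127 after scaling). Foxm1, a transcription factor of G2 and M genes, had a difference of -0.91 (adjusted p = 0.114, and 0.0169 after scaling).

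By role, among 8 kinases and checkpoint genes 1 was called, with differences from -1.66 to 0.023, and among 4 degradation genes 1 was called, with differences from -1.71 to -0.12. After scaling these counts were 1 and 2, the second degradation gene being Fzr1 (adjusted p = 0.0429). Cdc25a and Ccnf, at -0.42 and -0.83, had 0 called and 1 after scaling. Of 11 transcription factors and MuvB or NF-Y subunits 0 were called, with 1 after scaling, and the range was -0.91 for Foxm1 to 0.26 for Lin52. The NF-Y subunits Nfya, Nfyb and Nfyc had differences of -0.013, 0.0062 and -0.43 (adjusted p = 0.99, 0.995 and 0.416), and for Nfyc every Cend1-KO library was below every control. PP2A-B55 opposes CDK1 by dephosphorylating its substrates, and Greatwall inhibits PP2A-B55 through Ensa and Arpp19. The 6 tested genes of that branch, Ensa, Arpp19 and 4 PP2A subunits, ran from -0.71 to -0.049 with 0 called and 1 called after scaling. The 5 tested inhibitor and stress genes, which include Cdkn1a and Cdkn1b, ran from -0.64 to 0.14, and the other Polo kinases from -0.57 for Plk4 to 0.37 for Plk2, with 0 called in both groups under either scale. Genes under the filter were Ccna1, Ccnb3, Mastl, Mybl2 and Sfn.

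**Figure D5:**
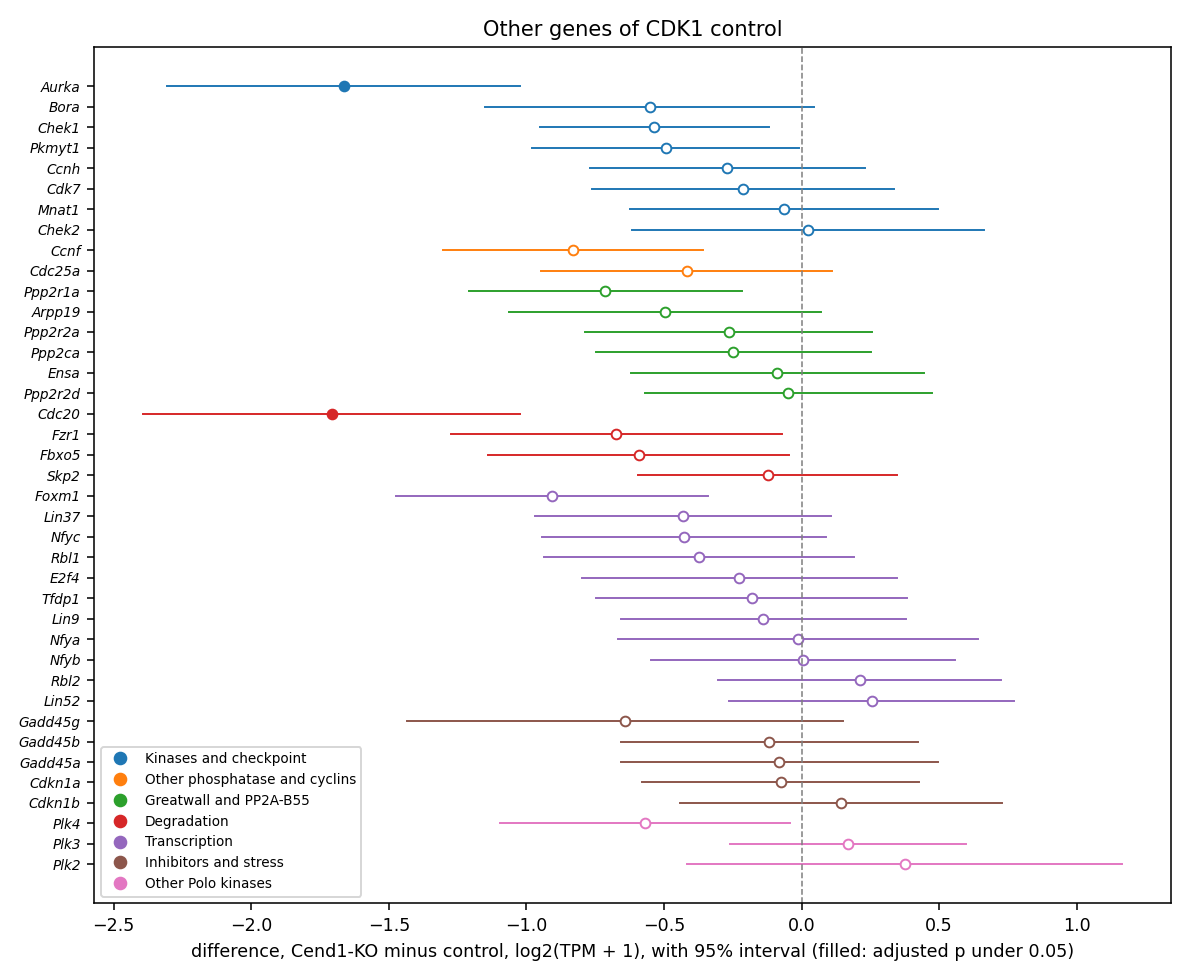
Difference between Cend1-KO and control on the log2(TPM + 1) scale with its 95% interval for 39 other genes of CDK1 control, coloured by role. The 2 filled points, Aurka and Cdc20, passed the test, and the remaining 37 did not.

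The 5 genes whose profile over the 6 libraries was most like the mean member profile were Aurka, Cdc20, Ankrd1, Racgap1 and Knstrn, with Pearson coefficients on log2(TPM + 1) between 0.998 and 0.999. Of 11809 candidate genes 8.18% had a coefficient above 0.9, and the 6 points include the step between groups, so the measure only describes likeness. Racgap1, a GTPase-activating protein of cytokinesis, was at 15.3 ± 3.92 and 4.44 ± 1.87 TPM, and Knstrn, a kinetochore and spindle protein, at 11.3 ± 2.21 and 3.72 ± 1.57 TPM (SD, n = 3 each; adjusted p = 0.0149 and 0.0219). Without control replicate 3 these were 0.0517 and 0.0829, and Knstrn had 0.0821 without Cend1-KO replicate 4. Ankrd1, a muscle ankyrin-repeat protein and the only one of the 5 not known as a mitotic gene, was at 213.7, 234.5 and 260.0 TPM in controls and 179.1, 131.3 and 154.8 TPM in Cend1-KO. The groups did not overlap, but the difference of -0.61 (SE 0.22; adjusted p = 0.198) did not pass.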

How the data were processed

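RNA of mouse heart ventricles was extracted with TRIzol and made into libraries with a NEBNext Ultra RNA kit, per the labels' protocols. The genome build was mm10 and the tools were HISAT2 2.0.5, featureCounts 1.5.0-p3, fastp and CASAVA, per the submitters' processing notes. The deposited values are TPM made by the authors: every library adds up to 1000000 and the values have decimals. The TPM calculation is not given in the sources used here, and depth is unknown. Sample descriptions name the column of each library. Of 57010 identifiers 52029 matched GENCODE M21 on the same build, which gave symbols and coordinates.

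A filter of 1 TPM or more in 3 or more libraries left 13542 genes, which were tested with limma 3.58.1 in R 4.3.3 on log2(TPM + 1), using the trend and robust options, and Benjamini-Hochberg adjusted p under 0.05 over all of them is a call. The procedure was tested on simulated data. Of genes given a log2 change of 1, 30% were called, and 83% at a change of 2, with 9 false calls. A gene that did not pass may therefore still differ by such an amount. Differences are Cend1-KO minus control. Median-of-ratios and upper-quartile scaling, other pseudocounts, filters and variance settings, removal of mitochondrial and hemoglobin genes, the replicate number as a block, Xist as a covariate and leaving out each library were tried. Scaling combined with the block or with leaving out a library was added after seeing the data. Named genes are all members, Cend1, Mki67, Top2a, called genes of the CDK1-control list (or its 4 smallest p), and the 5 genes most like the mean member profile. Some genes that overlap a member or copy one are named for that reason. Further genes of the CDK1-control list are named as the ends of a range or as examples, chosen after their values were seen. The members and lists were chosen with earlier results of these data known.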

Additional observations from a re-analysis of the deposited data

How the results depend on the processing

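No member changed direction under any alternative. As deposited 6 members were called lower, and leaving out 1 library gave 4 to 8. Median-of-ratios or upper-quartile scaling and the replicate block gave 8, and the Xist covariate gave 7. All genes called lower numbered 123 as deposited and 28 to 553 without 1 library. They numbered 585 and 582 after the 2 scalings, 372 with the block and 270 with the covariate. After median-of-ratios scaling, the count was 6 without control replicate 3 and 8 without any other single library. Without the filter limma tested 30114 genes and called 0 members, 0 genes of the CDK1-control list and 0 genes in all, with 2894 at an unadjusted p under 0.05. Members called higher numbered 0 throughout. The labels do not say that replicate numbers pair the libraries, and the column names share no numbers between the groups. Deviations of same-numbered libraries correlated at -0.172, 0.0441 and -0.12, and those of other pairs at -0.109 to 0.204. With so few libraries per group these values cannot show whether same-numbered libraries belong together.

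The 2 CDK1-control genes called lower became 6 after either scaling, 4 with the replicate block, 4 with the Xist covariate, and 1 to 8 without 1 library. All called genes, 230 as deposited (107 higher, 123 lower), became 1396 after median-of-ratios scaling (811 higher, 585 lower), 1405 after upper-quartile scaling, 116 at a filter of 5 TPM, 485 without mitochondrial and hemoglobin genes, 738 with the replicate block, 544 with the Xist covariate and 65 to 808 without 1 library. The cause of these changes was not tested. TPM keeps no depth, so counting error at low levels such as those of Cdc25c and Plk1 is unknown.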
